A study of Mus musculus with 9 samples.

Results

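The genes described here are *Hsf1*, which encodes heat shock factor 1, and 9 chaperone genes that are textbook targets of it: *Hspa8*, *Hspa1a*, *Hspa1b*, *Hsph1*, *Dnajb1*, *Hsp90aa1*, *Hsp90ab1*, *Hspb1* and *Hspe1*. They were chosen by symbol, as 10 of the 51912 genes listed in the deposited table. After the rescaling described below, all 10 passed the filter on low levels. All but 1 encode proteins of the cytosol and nucleus. *Hspe1* encodes HSP10, the lid of the mitochondrial chaperonin, so the name cytosolic heat shock genes does not hold for it, although its gene is a classic heat shock gene.

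Chaperones bind unfolded stretches of other proteins and help them fold, refold or be removed. In an unstressed cell HSF1 is held inactive, partly by the chaperones themselves. When unfolded proteins occupy the chaperones, HSF1 forms trimers, binds heat shock elements in the promoters of its targets and raises their transcription, which makes these mRNAs a common readout of protein folding stress, heat and fever. Hepatocytes keep high amounts of the constitutive members because they make and secrete much of the plasma's protein, and feeding, body temperature and time of day are known to move heat shock transcripts in liver.

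Liver RNA came from 9 fasted mice on a C57Bl/6 background. The question of the comparison is which liver transcripts differ when the hepatic production of apoC-III, an apolipoprotein of triglyceride-rich lipoproteins, is lowered. An antisense oligonucleotide (ASO), which pairs with an mRNA and leads to its cleavage by RNase H, was injected intraperitoneally at 50 mg/kg/week for 8 weeks. Of the mice, 5 had received an ASO against apoC-III and 4 a control ASO. Every mouse in both groups, the controls included, was Apoe-/- Ndst1 f/f Alb-Cre+. These mice lack apoE everywhere and, through Cre driven by the albumin promoter, lack the heparan sulfate sulfotransferase NDST1 in hepatocytes. Neither group therefore stands for a wild-type liver, and there was no group without an ASO. Age and sex, and the diet of these 9 mice, were not given in the sources used here.

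The deposited unit was TPM, transcripts relative to a fixed total and to gene length, which keeps no read depth, and a counting error per liver could not be had. Nuclear protein-coding genes held 3.03 to 5.31% of the TPM in the apoC-III ASO livers and 1.94 to 8.64% in the control ASO livers, the lowest being control ASO replicate 4. The levels given below are therefore TPM of nuclear protein-coding genes rescaled to 1000000 per liver and divided by a median-of-ratios factor, which was 0.950 to 1.44 in the apoC-III ASO livers and 0.496 to 1.16 in the control ASO livers, again lowest in control ASO replicate 4. *Apoc3*, the target of the ASO (chr9:46232933-46235636, GRCm38), lay between 334 and 623 in the apoC-III ASO livers and between 3170 and 4293 in the control ASO livers, without overlap. The fitted log2 fold change of this gene was -3.01 (adjusted p = 0.00038, SE 0.23 by limma over 11954 genes). Of the 8 hepatocyte markers listed, 7 were found, and they summed to between 24432 and 54521 in the apoC-III ASO livers and between 33809 and 41283 in the control ASO livers.

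Genes under HSF1 are known for heat shock elements in their promoters, and the promoters at hand are shown for that reason. HSF1 binds inverted repeats of a short unit with GAA at its core. The short form searched was GAANNTTC or TTCNNGAA, each of which reads the same on both strands. The long form was GAANNTTCNNGAA or its reverse complement TTCNNGAANNTTC, in which short forms overlap by 3 bases. RefSeq promoter windows of GRCm38.p6, running from 250 bases before a transcript start to 50 bases after it, were at hand for 6 of the 10 genes: *Hspa1a*, *Hspa1b*, *Hsph1*, *Dnajb1*, *Hspb1* and *Hspe1*. The short form was in windows of 5 of the 6 and the long form in those of *Hsph1* and *Hspe1*. Over all 32851 windows of the table, 15.1% held the short form at least once, 1.96% held it at least 2 times and 0.603% held the long form. *Hspa1a* and *Hspa1b* are shown whole over the 150 bases before the start, because they are near-copies of each other, and *Hspb1* because it carries a pair of matches. For *Hspe1* and *Hsph1* only the 30 bases around a match are shown. Capitals mark the matches to the element, and each sequence runs 5′ to 3′ on the strand of its gene.
Hspa1a, chr17:34972157-34972306, minus strand: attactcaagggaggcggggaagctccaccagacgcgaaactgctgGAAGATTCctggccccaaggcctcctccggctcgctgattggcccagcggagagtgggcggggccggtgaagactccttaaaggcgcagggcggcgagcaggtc
Hspa1b, chr17:34959239-34959388, minus strand: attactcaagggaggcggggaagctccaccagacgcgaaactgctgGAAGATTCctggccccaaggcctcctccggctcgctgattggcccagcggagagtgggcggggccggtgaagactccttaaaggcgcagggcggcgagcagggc
Hspb1, chr5:135887769-135887918, plus strand: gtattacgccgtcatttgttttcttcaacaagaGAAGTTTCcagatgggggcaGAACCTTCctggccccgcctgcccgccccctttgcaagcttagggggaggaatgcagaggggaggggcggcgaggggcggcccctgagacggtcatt
Hspe1, chr1:55088053-55088082, plus strand: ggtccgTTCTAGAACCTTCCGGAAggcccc
Hsph1, chr5:149636351-149636380, minus strand: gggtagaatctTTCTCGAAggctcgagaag
Hsph1, chr5:149636287-149636316, minus strand: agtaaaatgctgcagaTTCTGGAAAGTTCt

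The *Hspa1a* and *Hspa1b* windows each held 1 match, which began 104 bases before the start, and 247 of the 250 bases before their starts were identical (98.8%). The matches of *Hspb1* began 117 and 97 bases before its start. In *Hspe1* the match was an unbroken run of 18 bases that began 89 bases before the start, and the same bases lie in a window of *Hspd1*, the gene of its partner HSP60, which is read from the opposite strand. The matches of *Hsph1* began 33 bases before and 36 bases after the first of its listed starts. The match before that start lies inside the GENCODE gene model of *Hsph1*, which begins at chr5:149636376. *Dnajb1* had windows at 2 starts, and neither held the element, which says only that these letters are not in those windows.

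**Figure D1:**
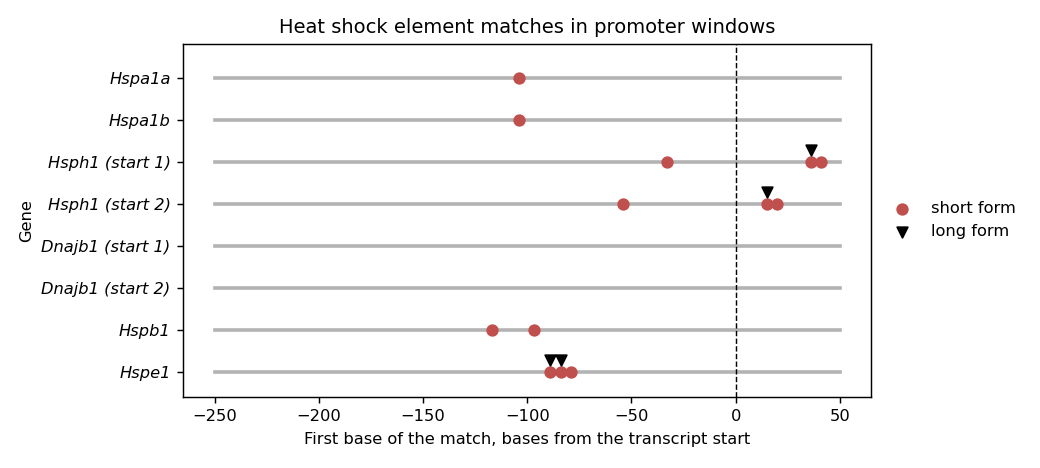
Position of heat shock element matches in the RefSeq promoter windows of the heat shock genes. The x axis is the distance of the first base of a match from the transcript start in bases, each grey line is 1 window, circles mark the short form and triangles the long form. The *Hspa1a* and *Hspa1b* matches both stand 104 bases before the start, and the *Dnajb1* windows hold none.

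The level of these genes, which TPM gives per length and so lets genes be compared, differed widely between genes. *Hsp90ab1* and *Hspa8*, the constitutive HSP90 and HSP70 of the cytosol, were highest, at a mean level over the 9 livers of 734 ± 168 (SD) and 722 ± 388. They were not separated from each other, as *Hsp90ab1* was above *Hspa8* in 6 of 9 livers. *Hsp90aa1*, the more inducible HSP90, followed at 334 ± 142 and was below *Hspa8* in all 9 livers. *Hspe1* at 151 ± 46.5 and *Hsph1* at 149 ± 67.6 could not be ordered either, with *Hspe1* higher in 5 of 9 livers. The strongly inducible HSP70 gene *Hspa1b* had a mean level of 44.1 ± 29.2 and the small heat shock protein gene *Hspb1* one of 27.1 ± 14.2. *Hsf1* at 12.6 ± 2.60, *Dnajb1* at 7.75 ± 2.69 and *Hspa1a* at 5.30 ± 2.72 were lowest. *Hspb1* was above *Hsf1* in 8 of 9 livers and *Dnajb1* above *Hspa1a* in 7 of 9.

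**Figure D2:**
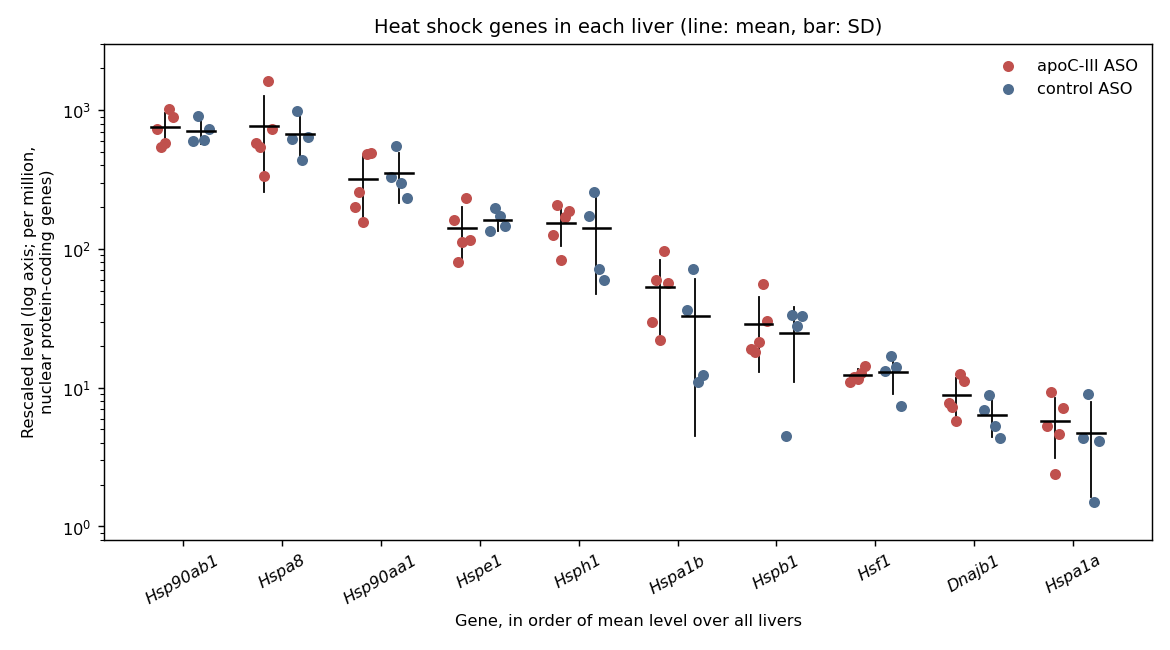
Rescaled level of each heat shock gene in each liver, on a log axis, with genes in order of their mean over all 9 livers. Points are single livers (5 apoC-III ASO, 4 control ASO), horizontal lines are group means and vertical bars are SDs. The points of both groups overlap for every gene, and *Hspa1b* and *Hspb1* spread the most.

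Between the ASO groups, none of the 10 heat shock genes differed beyond the spread between livers. In limma's fit on log2(level + 1) over 11954 genes, 0 of the 10 were called at the threshold used here, an adjusted p under 0.05 together with more than a 1.5-fold change, where 0.0167% of all genes tested were called in either direction. The smallest adjusted p among them was 0.900. At an unadjusted p under 0.05, 0 of the 10 passed against 5.56% of all genes, and for 0 of the 10 did the groups not overlap, against 1.83% of all genes. By direction, 3 had a log2 fold change under 0 and 7 over 0, with a median of 0.19 and a range of -0.29 to 0.90, while 50.2% of all genes were under 0 with a median of -0.0012. The direction depended on the scaling: without the median-of-ratios factors 0 of the 10 were under 0, but 3 were under the median of all genes, which that scaling put at 0.41. In TPM as deposited 1 of the 7 that passed its filter was under 0. *Hsf1*, *Dnajb1* and *Hspa1a*, at a mean TPM of 0.68, 0.41 and 0.29, did not pass it. In control ASO replicate 4 these genes were at a TPM of 0.072, 0.042 and 0.040, so their rescaled levels there rest on values near the floor. The direction also depended on single livers. With control ASO replicate 2 left out 1 of the 10 was under 0, and 5 were without apoC-III ASO replicate 4 or control ASO replicate 3. In whole liver, fewer cells of a type and less RNA per cell cannot be told apart, for these genes as for any other.

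**Figure D3:**
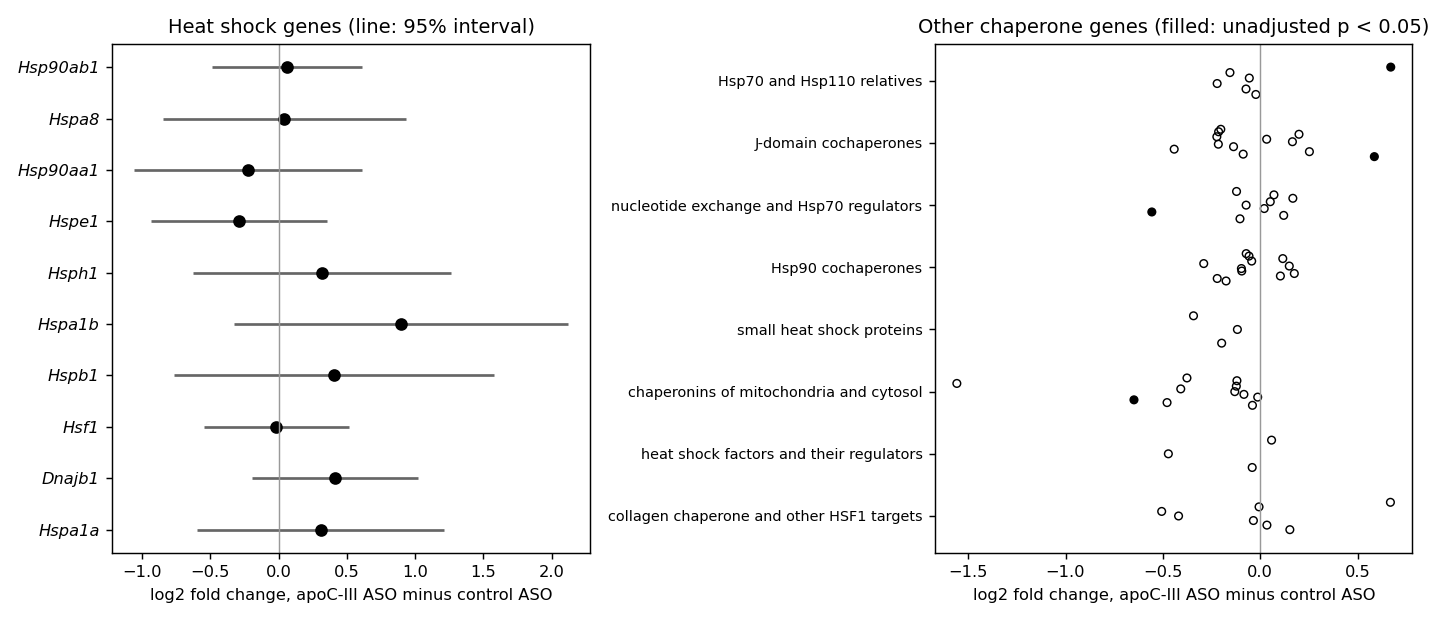
Log2 fold changes of apoC-III ASO against control ASO livers. Left, the heat shock genes with their 95% intervals from limma, every interval including 0. Right, the other chaperone genes by list, 1 point per gene, filled where the unadjusted p was under 0.05. All 11 points of the chaperonin list are left of 0 under this scaling. Without the median-of-ratios factors 3 were under 0, but 9 were under the median of all genes, which was then 0.41.

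*Hsf1* (chr15:76477422-76501913, plus strand, GRCm38), the regulator itself, is controlled mostly through its protein rather than its mRNA. In the apoC-III ASO livers its level was 11.05, 12.02, 11.5, 12.8 and 14.3, and in the control ASO livers 13.2, 16.8, 14.2 and 7.44. The control ASO livers enclosed the apoC-III ASO livers on both sides, with control ASO replicate 2 highest and replicate 4 lowest. With a log2 fold change of -0.02 (adjusted p = 0.998, SE 0.24), the 95% interval of the fold ran from 0.686 to 1.43.

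*Hspa8* (chr9:40800984-40810087, plus strand) encodes HSC70, the constitutive HSP70, which also uncoats clathrin vesicles. Its level was 578, 541, 338, 1636 and 729.5 in the apoC-III ASO livers and 619.9, 984, 435 and 638 in the control ASO livers. Replicate 4 of the apoC-III ASO group stood above all other livers, and the other apoC-III ASO livers overlapped the control ASO livers, with apoC-III ASO replicate 3 below every control. The difference on the log2 scale was 0.04 (adjusted p = 0.998, SE 0.41), and without apoC-III ASO replicate 4 it was -0.28.

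*Hspa1a* (chr17:34969190-34972156) and *Hspa1b* (chr17:34956436-34959238) encode the inducible HSP70, which is almost absent from an unstressed cell and rises fast with heat. They lie 9951 bases apart on the minus strand, and their coding sequences matched at 1918 of 1929 aligned bases (99.4%), against 74.1% for *Hspa1a* and *Hspa8*. *Hspa1a* was at 5.28, 9.36, 2.38, 4.62 and 7.16 in the apoC-III ASO livers and at 4.35, 8.95, 1.49 and 4.11 in the control ASO livers. *Hspa1b* was at 29.9, 60.0, 22.2, 97.2 and 56.8 in the apoC-III ASO livers and at 36.2, 71.5, 11.1 and 12.4 in the control ASO livers. Control ASO replicates 3 and 4 were the lowest livers for *Hspa1b*, apoC-III ASO replicate 4 was the highest, and the groups overlapped for both genes. The log2 fold change of *Hspa1b*, at 0.90 (adjusted p = 0.900, SE 0.56), was the largest of the 10, but its 95% interval ran from a fold of 0.796 to 4.35. Leaving out control ASO replicate 3 gave 0.53 and leaving out control ASO replicate 2 gave 1.39, and TPM as deposited gave 0.49. *Hspa1a* differed by 0.31 on the log2 scale (adjusted p = 0.962, SE 0.41).

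How reads were split between these copies was decided by the quantification. Of all 31-base words in the transcript of *Hspa1a*, 65.4% also occur in transcripts of other genes, nearly all in *Hspa1b*, and of those in *Hspa1b* 68.0% do. The level of *Hspa1b* was 5.66 to 21.04 times that of *Hspa1a* in the apoC-III ASO livers and 3.003 to 8.32 times in the control ASO livers, with the highest ratio in apoC-III ASO replicate 4. The split between them is therefore uncertain, while their sum is less so. The log2 fold change of *Hspa1b* given above rests on this split. With *Hspa1a* and *Hspa1b* summed, 0 of the 9 genes then tested were called by limma. *Hspa8* was at 7.81 to 16.4 times the sum of both in the apoC-III ASO livers and at 12.2 to 38.8 times that sum in the control ASO livers, with control ASO replicates 3 and 4 over 30. As a ratio within a liver this value does not depend on the scaling, and the ranges of the groups overlapped. The same limit touches *Hspa8*, which shared 77.2% of its words, most of them with *Gm15459*, and *Hsp90aa1*, *Hspb1* and *Hspe1*, which shared 62.9, 56.7 and 48.1%. *Hsp90ab1* shared 16.6%, *Dnajb1* 1.08%, *Hsf1* 0.434% and *Hsph1* 0%.

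*Hsph1* (chr5:149614287-149636376, minus strand) encodes HSP110, which exchanges nucleotide on HSP70 and, with a J-domain protein, helps it pull aggregates apart. Its level was 125, 206, 83.8, 171 and 188 in the apoC-III ASO livers and 173, 258, 71.9 and 59.6 in the control ASO livers. As for *Hspa1b*, control ASO replicates 3 and 4 were lowest, but here control ASO replicate 2 was highest. On the log2 scale the difference was 0.32 (adjusted p = 0.962, SE 0.43), with a 95% interval of the fold from 0.649 to 2.41. *Dnajb1* (chr8:83608193-83612653, plus strand) encodes HSP40, the J-domain protein that hands substrates to HSP70 and takes part in holding HSF1 inactive. Its level was 7.73, 7.23, 5.72, 12.5 and 11.2 in the apoC-III ASO livers and 6.89, 8.85, 5.32 and 4.36 in the control ASO livers. Only apoC-III ASO replicates 4 and 5 were above every control ASO liver. That gave a log2 fold change of 0.41 (adjusted p = 0.902, SE 0.28), with an interval of the fold from 0.876 to 2.03.

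The HSP90 pair, which matures kinases and steroid receptors, had coding sequences that matched at 75.7% of aligned bases. *Hsp90aa1* (chr12:110690605-110702728, minus strand) was at 201, 258, 158, 487 and 492 in the apoC-III ASO livers and at 332, 552, 298 and 233 in the control ASO livers. Replicates 1 to 3 of the apoC-III ASO group were lower than replicates 4 and 5, and the control ASO livers lay between 233 and 552, giving a log2 fold change of -0.22 (adjusted p = 0.969, SE 0.38). *Hsp90ab1* (chr17:45567775-45573271, minus strand) was at 737, 542, 581, 1013 and 890.0 in the apoC-III ASO livers and at 601, 904, 608 and 727 in the control ASO livers. It spread least of the 10 genes, with 1.87-fold between the highest and the lowest liver, and the groups differed by 0.06 on the log2 scale (adjusted p = 0.992, SE 0.25). The ratio of *Hsp90aa1* to *Hsp90ab1* within a liver, the inducible over the constitutive form, was 0.271 to 0.553 in the apoC-III ASO livers and 0.320 to 0.611 in the control ASO livers.

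*Hspb1* (chr5:135887919-135889563, plus strand) encodes HSP25, a small heat shock protein that holds unfolded proteins without ATP. Its level was 19.1, 18.03, 21.4, 56.2 and 30.5 in the apoC-III ASO livers and 4.48, 33.4, 27.9 and 32.6 in the control ASO livers. Control ASO replicate 1 was far below the other livers, and the spread of 12.5-fold between the highest and lowest liver was the widest of the 10 genes. The log2 fold change of 0.40 (adjusted p = 0.960, SE 0.54) was -0.24 without control ASO replicate 1.

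*Hspe1* (chr1:55088132-55091307, plus strand) was at 161, 79.9, 113, 232 and 117 in the apoC-III ASO livers and at 134, 199, 172 and 148 in the control ASO livers. The apoC-III ASO livers lay on both sides of the control ASO livers, with a log2 fold change of -0.29 (adjusted p = 0.943, SE 0.29). Leaving out replicate 2 of the apoC-III ASO group gave -0.11, and leaving out its replicate 4 gave -0.49. *Hspd1* (chr1:55077835-55088243, minus strand), whose HSP60 forms the barrel that HSP10 closes, was at a mean level of 227 ± 79.7 (SD, n = 5) in the apoC-III ASO livers and 295 ± 80.7 (SD, n = 4) in the control ASO livers. The difference was -0.41 on the log2 scale (adjusted p = 0.907, SE 0.29). The gene models of the pair overlap by 112 bases. The ratio of *Hspe1* to *Hspd1* kept within 0.514 to 0.724 in the apoC-III ASO livers and 0.410 to 0.691 in the control ASO livers. Over all 9 livers its fold range was narrower than that of either gene alone. Within the control ASO livers it was wider than that of *Hspe1*.

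Single livers stood high or low for many of the heat shock genes at once. The mean z-score of the 10 genes was highest in apoC-III ASO replicate 4 (1.09), control ASO replicate 2 (1.01) and apoC-III ASO replicate 5 (0.60), and lowest in apoC-III ASO replicate 3 (-0.85) and control ASO replicates 4 (-0.69) and 3 (-0.57). Replicate 4 of the apoC-III ASO group held the highest level of 6 of the 10 genes. The share of all genes that were highest in that liver is not given here, so the pattern may not be particular to the heat shock genes. In control ASO replicate 2 all 10 genes were above their mean over the livers, and in apoC-III ASO replicate 3 none was. The share of all genes above their mean in these livers is not given here either. The summed level of the 10 genes ran from 1336 to 3723 in the apoC-III ASO livers and from 1643 to 3037 in the control ASO livers.

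**Figure D4:**
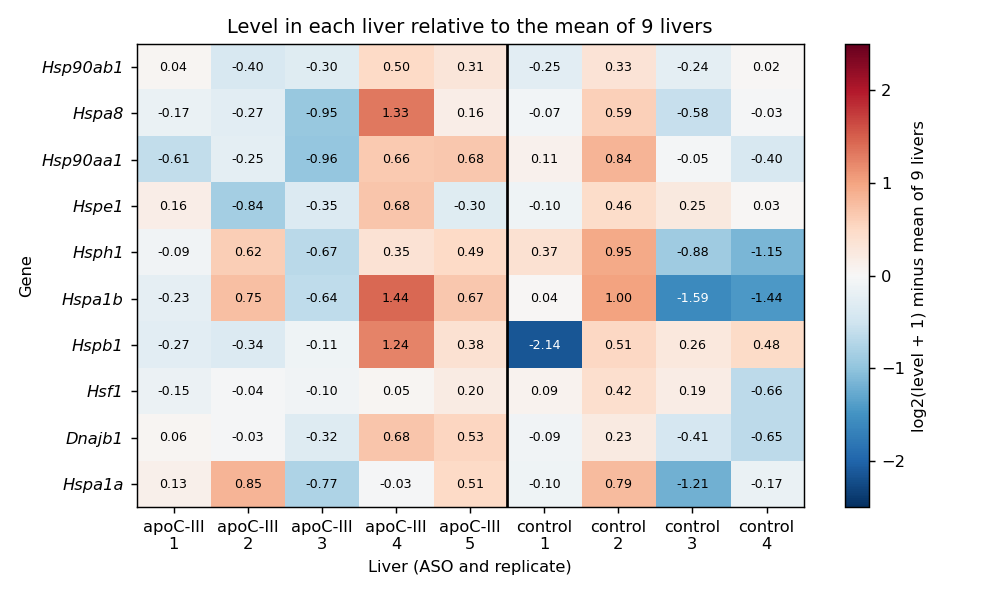
Level of each heat shock gene (rows) in each liver (columns), as log2(level + 1) minus the mean of the 9 livers. Red is above and blue below that mean, and the black line separates the ASO groups. The column of control ASO replicate 2 is red throughout, that of apoC-III ASO replicate 4 is red for every gene but *Hspa1a*, and that of apoC-III ASO replicate 3 is blue throughout.

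Other transcripts that mark the state or the cell makeup of a liver are given beside this pattern. The 15 listed clock genes summed highest in the same 3 livers, at 1073 in apoC-III ASO replicate 5, 1045 in apoC-III ASO replicate 4 and 916 in control ASO replicate 2, and between 208 and 715 in the other 6. *Dbp*, a clock output gene, was at 2.92, 22.2, 2.70, 152 and 97.7 in the apoC-III ASO livers and between 68.2 and 103 in the control ASO livers. *Arntl*, which encodes the clock activator BMAL1 and peaks when *Dbp* is low, was at 17.7, 11.1, 30.9, 0.74 and 2.75 in the apoC-III ASO livers and between 0.32 and 2.46 in the control ASO livers. Replicates 1 to 3 of the apoC-III ASO group therefore had high *Arntl* and low *Dbp* beside replicates 4 and 5 and the controls. The log2 fold change of *Arntl* was 2.02 and that of *Dbp* was -1.99 (adjusted p = 0.864 and 0.884 by limma). *Per1*, a clock repressor, lay between 10.2 and 55.2 in the apoC-III ASO livers and between 30.03 and 48.6 in the control ASO livers. The part of the clock in the spread of the heat shock genes was not tested.

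The 12 listed immediate early genes, which rise within minutes of a stimulus or of handling, summed to between 71.3 and 136 in the apoC-III ASO livers and to between 48.5 and 77.1 in the control ASO livers. They were highest in apoC-III ASO replicate 1 and lowest in control ASO replicate 2, a liver with high heat shock genes. *Fos* was at 2.38 to 5.97 and at 0.27 to 3.06 (log2 fold change 1.10, SE 0.37, adjusted p = 0.864 by limma), and *Jun* at 5.76 to 25.2 and at 2.82 to 12.4, in the apoC-III ASO and control ASO livers. The 5 erythroid markers summed to 949 in apoC-III ASO replicate 4 and 2183 in control ASO replicate 4, against 49.8 to 204 in the other livers. Of these livers the first was high and the second low for the heat shock genes. The summed markers of Kupffer cells and leukocytes (9 genes, 75.1 to 123 and 73.4 to 139), of endothelial cells (7 genes, 84.6 to 127 and 82.4 to 123), of stellate cells and fibroblasts (7 genes, 122 to 148 and 136 to 259) and of cholangiocytes (5 genes, 37.9 to 81.4 and 41.0 to 121) overlapped between the apoC-III ASO and control ASO livers. No listed marker was at 0 in all livers. The part of these cells in the results was not tested.

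Among the 45 pairs of heat shock genes, 41 had a Pearson r above 0 over the 9 livers, with a median r of 0.54 and a range of -0.21 to 0.92. All values of a liver share its library and its scaling factor, and the r of pairs of other genes is not given here for comparison. After Benjamini-Hochberg adjustment over the 45 pairs, the exact permutation p of Pearson's r stayed under 0.05 for 3 pairs, and that of Spearman's rho for 0. The inducible *Hspa1b* went with *Hsph1* (r = 0.92, exact permutation p = 0.0012, adjusted 0.027; rho = 0.82, exact p = 0.011, adjusted 0.097). It also went with *Dnajb1* (r = 0.90, exact permutation p = 0.0010, adjusted 0.027; rho = 0.87, exact p = 0.0045, adjusted 0.068). The constitutive pair *Hspa8* and *Hsp90ab1* was the third (r = 0.85, exact permutation p = 0.0018, adjusted 0.027; rho = 0.85, exact p = 0.0061, adjusted 0.068). Without the 2 livers farthest from the median of the gene named first, r was 0.79, 0.82 and 0.79. With the group means removed r was 0.93, 0.87 and 0.85. For *Hspb1* and *Hspe1* no relation to the inducible *Hspa1a* was detectable, with r of 0.03 and -0.21 (exact permutation p = 0.902 and 0.585) and rho of 0.00 and -0.13 (exact p = 1 and 0.744), which turned to an r of 0.23 and 0.39 without the 2 livers. *Hsf1* had an r of 0.67 with *Hsph1* (exact permutation p = 0.048, adjusted 0.14; rho = 0.62, exact p = 0.086, adjusted 0.18), and this rested on the 2 livers, without which r was 0.06. With *Hsp90aa1*, *Hsf1* had an r of 0.64 (exact permutation p = 0.052, adjusted 0.15; rho = 0.87, exact p = 0.0045, adjusted 0.068), which was 0.75 without the 2 livers.

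**Figure D5:**
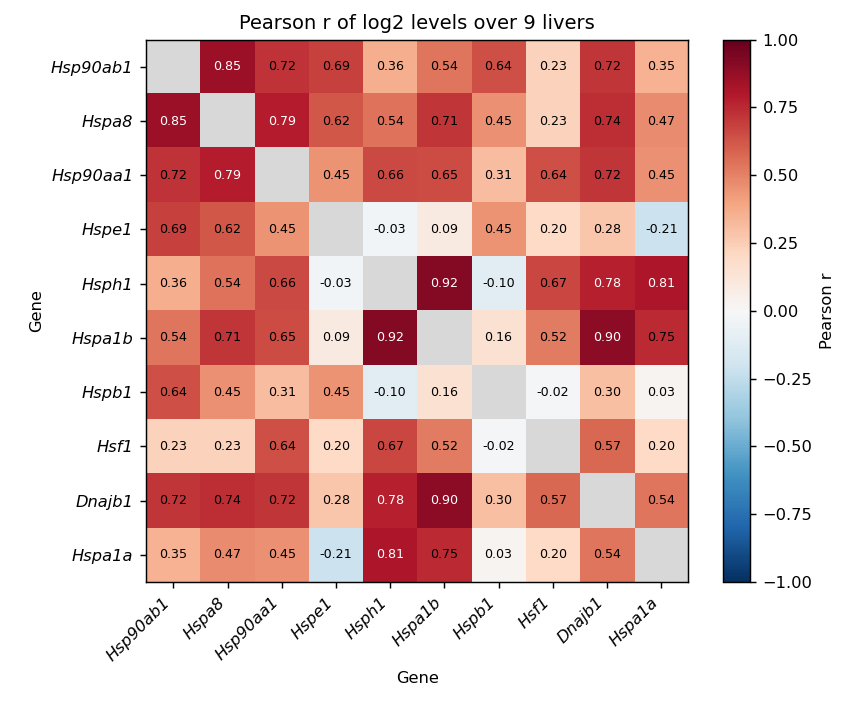
Pearson r of log2(level + 1) over the 9 livers for each pair of heat shock genes (grey on the diagonal). Red is a positive and blue a negative r, and the number in each cell is r. The cells that pair *Hspa1b*, *Hsph1* and *Dnajb1* with each other are dark red, and the cells of *Hspb1* and *Hspe1* with *Hsph1* are near 0.

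The genes whose pattern over the livers was most like the mean z-score of the 10 were sought among 8589 other genes with a mean level of at least 5. *Ahsa1* (r = 0.96), which encodes the activator of the HSP90 ATPase, came first and *Stip1* (r = 0.92), whose product HOP joins HSP70 to HSP90, came second. *Clptm1l* (r = 0.92), *Twnk* (r = 0.92) and *Tfdp1* (r = 0.91) followed. These r are a description over 9 livers and were chosen as the highest of many. *Ahsa1* was at 42.1, 37.5, 29.3, 52.9 and 46.4 in the apoC-III ASO livers and at 36.4, 55.8, 27.5 and 30.2 in the control ASO livers. Its highest livers were control ASO replicate 2 and apoC-III ASO replicate 4, as for the heat shock genes. On the log2 scale it differed by 0.18 (adjusted p = 0.966, SE 0.26) and *Stip1* by 0.15 (adjusted p = 0.973, SE 0.27).

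The rest of the chaperone network was listed as 73 genes in 8 lists, of which 63 passed the filter. Of these 44 had a log2 fold change under 0 and 19 over 0, with a median of -0.08, beside 3 and 7 among the heat shock genes. Without the median-of-ratios factors 6 of the 63 were under 0 and 38 under the median of all genes, and with quantile normalization 37 were under 0. None was called by limma, and 4 had an unadjusted p under 0.05: 2 that were lower, beside 2.58% of all genes in that direction, and 2 that were higher, beside 2.99%.

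The chaperonin list held TRiC, the cytosolic chaperonin that folds actin and tubulin, and the mitochondrial chaperones. All 11 tested genes of the list were under 0, 7 of them TRiC subunits, with a median of -0.13, but 3 were without the median-of-ratios factors (9 under the median of all genes), 5 in TPM as deposited and 8 with quantile normalization. *Cct4* was at 40.5, 40.3, 45.7, 38.2 and 48.1 in the apoC-III ASO livers and at 59.0, 89.7, 48.5 and 78.4 in the control ASO livers. Every control ASO liver was above every apoC-III ASO liver, but the log2 fold change of -0.65 (SE 0.22, unadjusted p = 0.0125 by limma) had an adjusted p of 0.864. Without the median-of-ratios factors, where the median of all genes was 0.41, the groups overlapped and the log2 fold change was -0.18 (SE 0.33). In TPM as deposited it was -0.31 (SE 0.45). *Cct7* had the lowest value of the network, -1.56 (adjusted p = 0.884, SE 0.76). It was at 729.9 in control ASO replicate 4 against 18.2 to 157 in all other livers, and without that liver its log2 fold change was -0.80. *Cct5*, at -0.01 (SE 0.28), was at 0.46 without the median-of-ratios factors, near the median of 0.41 under that scaling.

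Of the HSP70 and HSP110 relatives 5 of 6 were under 0, from *Hspa13* at -0.22 (SE 0.25) to *Hspa14* at 0.67 (SE 0.27, unadjusted p = 0.0298 by limma, adjusted 0.878). *Hspa14*, a ribosome-bound HSP70, was at 10.5, 9.08, 11.6, 11.2 and 6.18 in the apoC-III ASO livers and at 4.28, 5.50, 4.38 and 9.33 in the control ASO livers. Control ASO replicate 4 alone reached the apoC-III ASO range. The J-domain cochaperones had 7 of 12 under 0, from *Dnajb4* at -0.44 (SE 0.27) to *Dnajc5* at 0.59 (SE 0.25, unadjusted p = 0.0369 by limma, adjusted 0.878). Among the nucleotide exchange factors and HSP70 regulators 4 of 9 were under 0, and *Bag1*, an exchange factor that links HSP70 to the proteasome, was lowest at -0.56 (SE 0.25, unadjusted p = 0.0438 by limma, adjusted 0.878). Without the median-of-ratios factors *Bag1* was at -0.096 (SE 0.30), *Hspa14* at 1.10 and *Dnajc5* at 1.05. Under that scaling the median of all genes was itself 0.41, so these values are to be read against it. *Bag2*, an inhibitor of the ubiquitin ligase CHIP, was highest in that list at 0.17 (SE 0.53).

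The HSP90 cochaperones had 8 of 12 under 0 and a narrow range from *Ppid* at -0.29 (SE 0.23) to *Ahsa1* at 0.18. All 3 small heat shock protein genes that passed the filter were under 0, from *Hspb8* at -0.34 (SE 0.26) to *Hspb6* at -0.12 (SE 0.38), whereas *Hspb1* was over 0. Without the median-of-ratios factors 0 of the 3 were under 0, but all 3 were under the median of all genes. Of the other heat shock factors and their regulators, *Hsf4* was at 0.06 (SE 0.24) and *Hsbp1*, a small protein that binds the HSF1 trimer, at -0.47 (SE 0.34). In the last list 4 of 7 were under 0, and its ends were *Hspa5*, which encodes the HSP70 of the endoplasmic reticulum, at -0.51 (adjusted p = 0.900, SE 0.30), and *Serpinh1*, the collagen chaperone HSP47, at 0.67 (adjusted p = 0.883, SE 0.32). Without the median-of-ratios factors, beside a median of 0.41 over all genes, they were at -0.027 and 1.07. With control ASO replicate 4 left out *Hspa5* was at -0.30. No list, in either direction, held a gene that passed the adjusted threshold.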

How the data were processed

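RNA sequencing had been done on 9 livers, 1 per mouse. A gene table in TPM was deposited, and the submitters' processing notes name kallisto 0.43.1 and GRCm38 for it. The methods of the study name STAR, featureCounts and DESeq2, whose counts were not analysed here. TPM keeps no depth, so precision rests on the number of livers. Every value column was assigned to 1 liver by its name.

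Genes were matched to GENCODE M21 by Ensembl identifier (51633 of 51912). TPM of the 21780 nuclear protein-coding genes was rescaled to 1000000 per liver and divided by median-of-ratios factors from 12256 genes above 0 in all livers, since other RNA took most of the deposited TPM. Genes with a mean of at least 1 were tested with limma 3.58.1 in R 4.3.3 (lmFit, eBayes with trend) on log2(level + 1), so the change of low genes is understated. Fold changes are on that scale. A call needed a Benjamini-Hochberg adjusted p under 0.05 and over 1.5-fold. All p-values are two-sided. The fit was tested on simulated data. Correlations used exact permutation of 9 livers, whose smallest p is 5.5e-06. Shared words were counted over 31 bases of GENCODE transcripts, and coding sequences were aligned with biopython 1.88. Tables and figures were made with pandas 2.3.3, scipy 1.17.1, numpy 2.4.6 and matplotlib 3.10.9 in Python 3.11.15.

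The genes and lists were chosen with earlier results of these data known. Named are the 10 genes, *Apoc3*, *Hspd1*, both ends of each chaperone list and its genes with an unadjusted p under 0.05, *Fos*, *Jun*, *Dbp*, *Arntl* and *Per1*, and the 5 most alike genes. Alternatives were 3 other scalings, quantile normalization, pseudocounts of 0.1 and 0.5, no filter, a minimum of 5, eBayes without trend or robust, array weights, a replicate block, each liver left out, a gene-wise exact permutation test, calls without a fold threshold or at an adjusted p under 0.1, and *Hspa1a* summed with *Hspa1b*.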

Additional observations from a re-analysis of the deposited data

How the results depend on the processing

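Under all 25 alternatives 0 of the heat shock genes were called, and the lowest adjusted p of any of them in any setting was 0.45. The chaperone network also had 0 calls throughout. The gene-wise permutation test has 126 splits and a smallest p of 0.016, so its lack of calls says little. The number of the 10 genes under 0 was 3, fell to 0 without the median-of-ratios factors and 1 in TPM as deposited (7 tested), and ran from 1 to 5 with each liver left out. Of 192 values of these genes under alternatives, 21 changed direction, and 2 genes, *Hspa1b* and *Dnajb1*, kept theirs in every setting that tested them. *Dnajb1* was not tested in TPM as deposited or with median-of-ratios scaling of all genes, where it did not pass the filter. The causes were not tested. Without the factors, which moved the median of all genes to 0.41, the log2 fold change turned to 0.41 for *Hsf1*, 0.26 for *Hsp90aa1*, 0.19 for *Hspe1*, 0.070 for *Hspd1*, 0.46 for *Cct5*, 0.026 for *Dnajb4*, 0.22 for *Hspa13*, 0.15 for *Hspb6*, 0.13 for *Hspb8* and 0.18 for *Ppid*. In TPM as deposited it turned to 0.041 for *Hsp90aa1* and 0.16 for *Cct5*, and *Apoc3* stayed at -2.62 but with an adjusted p of 0.104. With array weights it turned to -0.040 for *Hspa8*, -0.23 for *Bag2* and 0.037 for *Cct5*. *Cct5* was also at 0.00015 with median-of-ratios scaling of all genes and 0.0097 with quantile normalization. With 1 liver left out at a time, values ran from -0.24 to 0.12 for *Hsf1*, -0.036 to 0.63 for *Hspa1a*, 0.53 to 1.39 for *Hspa1b*, 0.27 to 0.57 for *Dnajb1*, -0.49 to -0.11 for *Hspe1*, -0.28 to 0.28 for *Hspa8*, -0.0023 to 0.70 for *Hsph1*, -0.42 to 0.017 for *Hsp90aa1*, -0.054 to 0.19 for *Hsp90ab1*, -0.24 to 0.65 for *Hspb1*, -0.32 to 0.49 for *Bag2*, -0.17 to 0.14 for *Cct5*, -0.086 to 0.21 for *Hsf4* and -0.38 to 0.082 for *Hspb6*.

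Replicate numbers appear in both groups, but the sample titles name no pairing, so the numbers were not read as pairs. Same-numbered livers deviated together with an r of 0.07, 0.12, 0.03 and 0.19. The r of differently numbered livers was not computed, so these values cannot decide whether the livers were paired. A replicate block, in which apoC-III ASO replicate 5 has no partner and adds nothing, left 0 calls, put 4 of the 10 genes under 0 and turned *Hsp90ab1* to -0.0077 and *Hspb6* to 0.0067. With 5 and 4 livers and SEs of 0.24 to 0.56 on the log2 scale, small changes of these genes were not detectable, and the intervals above give what remains possible. Pseudogene copies limit the split of reads between near-identical genes.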
